A study of Arabidopsis thaliana with 39 samples.

Results

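The mitochondrion-encoded genes are the rows whose identifiers begin with ATMG, the Arabidopsis thaliana locus prefix for the mitochondrial genome. Each of the 4 deposited tables held 146 such rows, among 33609 different rows over the tables. A row was kept within a table when its mean over that table's columns was at least 1, which left 47 members in set 1, 62 in set 2, 45 in set 3 and 41 in the shoot apices. In all, 66 members were kept in 1 or more tables, 34 in every table, and 80 in none. Set 1 had 0.964 as the highest mean left out and 1.09 as the lowest kept; these means were 0.840 and 1.14 for set 2, 0.948 and 1.61 for set 3, and 0.833 and 1 for the apices. Of the rows left out, 71, 54, 74 and 74 were at 0 in every library of set 1, set 2, set 3 and the apices.

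The study compared Arabidopsis mutants of LUMINIDEPENDENS (LD), a nuclear flowering-time gene that the study's title describes as a repressor of transcription, with their Col0 background by RNA sequencing. The labels name the genotypes as fld, ld, pol2a, ld pol2a and Col0; FLD is a homologue of a histone demethylase that acts in the same flowering pathway, and POL2A is the catalytic subunit of a replicative DNA polymerase. Each genotype had 3 libraries within a set. Set 1 held fld, ld and Col0, set 2 held ld pol2a, ld, pol2a and Col0, and set 3 held ld and Col0; all were whole seedlings, 7 days old, grown at 16 hours of light. A further set held ld pol2a, ld, pol2a and Col0 shoot apices, with 30 apices per sample, taken at the same age and day length. The library names write abo for pol2a and ldabo for ld pol2a, but the labels give no allele for any mutant. They also do not say whether replicates came from separate cultures, so p-values measure the spread between libraries, which may be technical.

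Seedling values were deposited after scaling to a spike-in, a foreign RNA added in a fixed amount, so that a rise of every transcript remains visible; apex values were raw counts without a spike-in. Each seedling change is therefore given in a pair of readings from limma, both as log2 changes of signal plus 1, which understate the change of low rows. The reading by spike-in uses the deposited signal, and the reading against the nuclear shift uses the signal after division by each library's median ratio over nuclear genes, so that 0 means that a member moved as much as the typical nuclear gene. Apex changes could be read only relative to nuclear genes, with edgeR. A member is called where the p-value, adjusted by Benjamini and Hochberg over all rows tested in the table, was under 0.05.

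Plant mitochondria keep a small genome of their own, which encodes core subunits of the respiratory chain and ATP synthase, factors for cytochrome c maturation, ribosomal proteins and the ribosomal and transfer RNAs; a phage-type RNA polymerase encoded in the nucleus transcribes it. Nuclear messages carry long, stable poly(A) tails, whereas in plant mitochondria a poly(A) tail marks a transcript for decay and most messages carry none. The labels state that poly(A) RNA was sequenced, so the values below are those of mitochondrial RNA that was still captured. Whether they follow the full mitochondrial RNA pool was not tested, and in these bulk samples fewer mitochondria and less RNA per mitochondrion cannot be told apart.

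A large part of the mitochondrial genome also stands in the nucleus, which bears on what could be counted. In the RefSeq TAIR10.1 assembly, 73.0% of the 367808 bp mitochondrial genome aligned to the nuclear chromosomes at 95% identity or more, and 72.9% aligned to chromosome 2, between 3239038 and 3509765. The 45 alignments there were 99.87% to 99.97% identical where they were at least 5000 bp long. The notes of this assembly name an ATMG locus as the best match of a chromosome 2 gene for 53 of the 146 members. All 55 such chromosome 2 genes were covered by mitochondrial sequence over at least 90% of their length, at 99% identity or more, and 28 had no mismatch in their longest alignment.

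The sequences below show how close the copies are. AT2G07687 is the chromosome 2 partner of ATMG00730, cytochrome c oxidase subunit 3, and its first 60 coding bases (chr2:3312592-3312651, minus strand) match the mitochondrial cox3 coding sequence (MT:330714-330773, minus strand) at every base. AT2G07715 is the partner of ATMG00560, annotated as a nucleic acid-binding protein with an OB fold. Within its coding exon, the 60 bases at chr2:3411956-3412015, plus strand, differ at 1 base from the mitochondrial rpl2 coding exon at MT:221775-221834, minus strand. Capitals mark the differing base.
AT2G07687: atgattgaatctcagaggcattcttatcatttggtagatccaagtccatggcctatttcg
mitochondrial copy of AT2G07687: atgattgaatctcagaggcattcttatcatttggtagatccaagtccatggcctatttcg
AT2G07715: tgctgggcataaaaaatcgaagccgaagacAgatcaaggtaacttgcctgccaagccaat
mitochondrial copy of AT2G07715: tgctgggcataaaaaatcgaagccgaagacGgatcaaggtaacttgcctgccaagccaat

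Members with a chromosome 2 partner were rarely counted. Of the 53 members with a partner, 8 were kept in set 1, 18 in set 2, 6 in set 3 and 8 in the apices. Of the 93 members without a partner, 39, 44, 39 and 33 were kept in the same tables. Without a partner means only that no chromosome 2 note names the member, not that it has no nuclear copy. In the reference, 24 of the 33 protein-coding mitochondrial genes had at least 90% of their length in the nucleus, and 5 had none. Members with a partner held 0.102% of all mitochondrion-encoded signal in set 1, 0.150% in set 2 and 0.212% in set 3, and 0.198% of the counts in the apices. ATMG00730 was at 0 in all 9 libraries of set 1 and all 6 of set 3, in 9 of the 12 of set 2 and in 11 of the 12 of the apices. ATMG00220, apocytochrome b, whose partner AT2G07727 has no mismatch to it over 3243 bp, was at 0 in 8 of 9, 11 of 12, 5 of 6 and 12 of 12 libraries of set 1, set 2, set 3 and the apices. These are core subunits of complexes IV and III of the respiratory chain. The sources used here do not give how reads that match both genomes were counted, and its part in these values was not tested. The partners themselves were sparse too: 10 of the 55 passed the mean of 1 in set 1, 23 in set 2, 11 in set 3 and 6 in the apices.

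**Figure D1:**
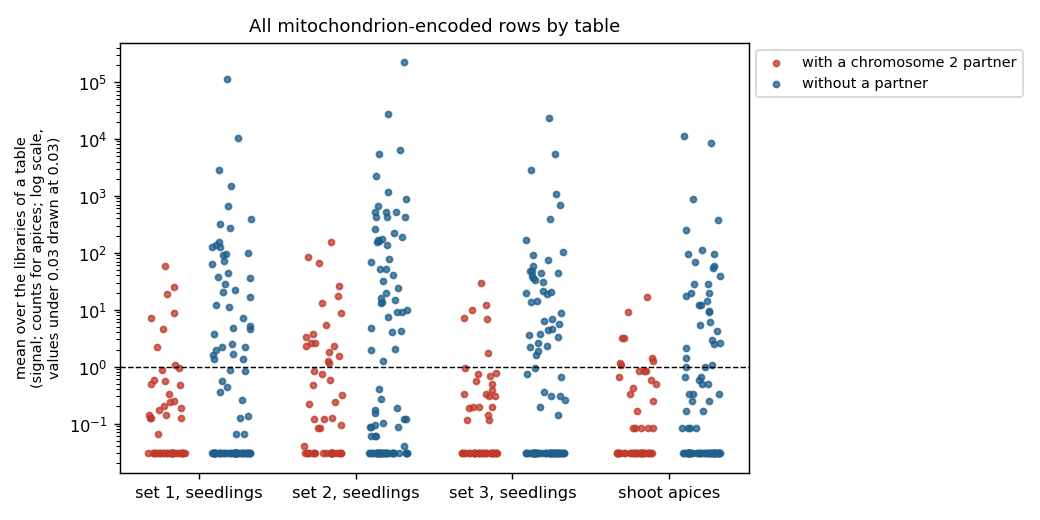
Mean value of all 146 mitochondrion-encoded rows in each table, split into the 53 rows with a chromosome 2 partner and the 93 without. The vertical axis is logarithmic, in spike-in scaled signal for seedlings and counts for apices, and the dashed line marks the mean of 1 needed to be kept; the highest row with a partner reached 157 in set 2, against 221933 for the highest row without.

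The chromosome 2 notes were also the only source used here that gives a product for an ATMG locus, so 15 of the 66 kept members could be named by function. They include a respiratory chain subunit (ATMG01320, NADH dehydrogenase 2B) and a cytochrome c maturation factor (ATMG00180). ATMG01090 and ATMG01080 are both annotated as subunit 9 of ATP synthase, which forms the rotor ring of the enzyme. The reference lists a single atp9 gene, and which of the pair matches it was not tested. The other kept members are given by their identifiers, with no role. ATMG00020, ATMG01390 and ATMG00030 are described in full because of their size, a choice made after their values were seen.

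ATMG00020 dominated the seedling signal. Among all mitochondrion-encoded signal its share ranged between 85.4% and 87.5% for set 1, between 77.8% and 84.8% for set 2 and between 63.0% and 70.3% for set 3; its share of the apex counts ranged between 49.6% and 52.1%. Together with ATMG01390 it held 81.1% or more in every library. These are shares of reads, not corrected for length. The sources used here name no product for ATMG00020 or ATMG01390. Whether their signal is messenger or ribosomal RNA was not tested, and the shares and sums below include it unless stated. In set 1 the third-ranked member, ATMG00090, averaged 2853 signal, against 112512 for ATMG00020 and 10206 for ATMG01390. ATMG00030 set the tables apart: its mean was 2836 signal in set 3, but 5.16 in set 1, 170 in set 2 and 6 counts in the apices. The tables were scaled separately, so these levels are set side by side without a test.

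The share of all values in mitochondrion-encoded genes was lower in the mutants of set 1. The share was 0.741%, 0.788% and 0.785% in the fld libraries and 1.01%, 0.940% and 1.03% in the ld libraries, against 1.99%, 1.99% and 1.93% in Col0. No fld or ld library overlapped Col0. In set 2 the ld pol2a libraries stood at 1.08%, 1.07% and 1.13%, the ld libraries at 1.65%, 1.40% and 1.42%, and the pol2a libraries at 1.33%, 1.32% and 1.99%, against 1.98%, 1.40% and 1.55% in Col0. Only ld pol2a lay wholly below Col0 there, and replicate 3 of pol2a and replicate 1 of Col0 stood well above their own groups. In set 3 the whole share was lower, at 0.103%, 0.0753% and 0.104% in ld and 0.121%, 0.123% and 0.104% in Col0. The apices had 0.176%, 0.268% and 0.230% in ld pol2a, 0.0612%, 0.0817% and 0.129% in ld and 0.168%, 0.140% and 0.105% in pol2a, against 0.139%, 0.109% and 0.138% in Col0. There, ld pol2a lay wholly above Col0.

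**Figure D2:**
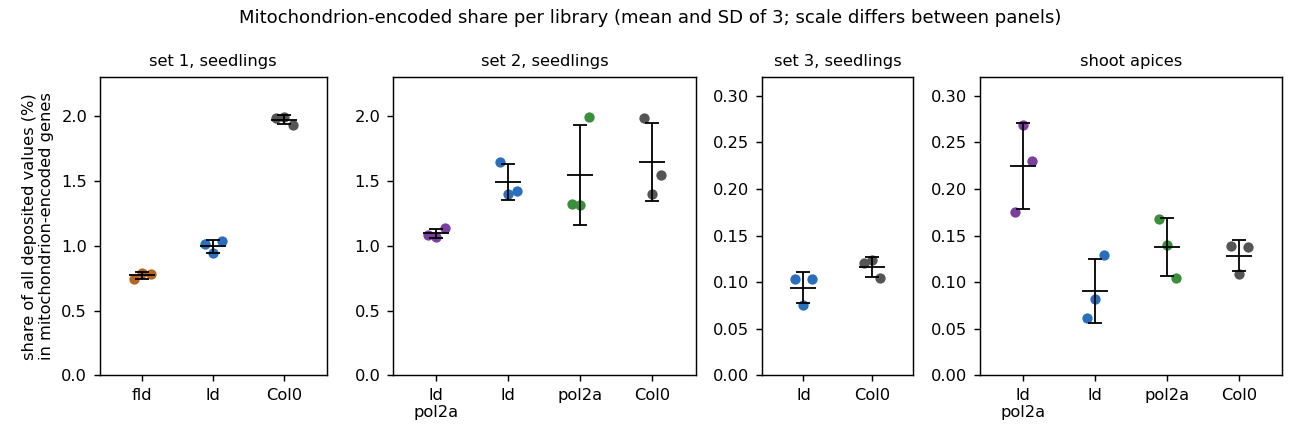
Share of all deposited values that fell in mitochondrion-encoded genes, in percent, per library (points) with the mean and SD of the 3 libraries (bars), by genotype within each table. The panels for set 3 and the apices use a smaller scale; fld and ld of set 1 average 0.771% and 0.996%, against 1.97% in Col0, and apex ld pol2a averages 0.225%, against 0.129% in Col0.

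Several facts of the whole series bear on these comparisons. In units of 1000000, a library of set 1 held between 10.4 and 14.4 recovered reads, of set 2 between 13.2 and 35.0, of set 3 between 23.1 and 37.8, and of the apices between 11.95 and 21.1 counts; mitochondrion-encoded reads numbered between 7901 and 396313. FLD averaged 10.5 ± 5.40 signal in fld and 64.5 ± 7.85 in Col0 (SD, n = 3 each). LD averaged 8.37 ± 3.64 counts per 1000000 (CPM) in apices labelled ld, against 18.05 ± 3.32 in Col0 (SD, n = 3 each). In seedlings it gave no single direction. As a share of all signal, LD ranged between 26.5 and 29.0 CPM in ld of set 1, against 10.3 to 10.8 in Col0, between 15.8 and 17.4 CPM in ld of set 2, against 13.8 to 16.3 in Col0, and between 14.7 and 16.7 CPM in ld of set 3, against 18.2 to 20.5 in Col0. POL2A ranged between 21.96 and 24.3 CPM in pol2a of set 2, against 15.1 to 15.4 in Col0. LD and POL2A transcript levels therefore do not check the seedling labels, and the seedling libraries are named by their labels throughout. Apices held little root RNA, with EXPA7 of root hairs at 0 to 0.432 CPM, against 2.18 to 15.4 in seedlings, and they were rich in leaf RNA, with the photosynthetic antenna gene LHCB1.3 at 18950.2 to 34962 CPM, against 9159 to 19644 in seedlings. The stem cell gene WUS was at or near 0 in both tissues. The meristem gene STM ranged between 3.75 and 14 CPM in apices, against 2.51 to 7.58 in seedlings. KNAT1 ranged between 3.48 and 10.3 CPM in apices, against 6.13 to 13.5 in seedlings. These ranges overlapped, so the shoot apex markers did not set the apices apart from seedlings. Variation between replicates was split into its independent directions, in units of counting noise, where separate libraries should give at least 1 in each. The smallest was 0.00777, 0.0530 and 0.235 in sets 1, 2 and 3 and 2.22 in the apices, so seedling p-values may be too small. Replicates 1 and 3 of fld in set 1, and replicates 1 and 2 of Col0 in set 3, differed by less than the sampling noise (chi-square per degree of freedom 0.944 and 0.605); they are kept apart below, and counts with each pair taken as 1 sample, an alternative chosen after the data were seen, are given beside.

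In fld seedlings of set 1 the mitochondrion-encoded genes rose far less than the nuclear genes. By spike-in 26 of the 47 members rose, 3 fell and 18 were not called, where 93.5% of all rows tested rose and 0.304% fell. The median change of the members was 0.39, against 1.63 for nuclear genes. Against the nuclear shift 33 of the 47 fell and 0 rose, where 26.4% of all rows fell and 26.6% rose; with replicates 1 and 3 of fld taken as 1 sample, 31 fell. All 29 members with a mean of at least 10 lay below the nuclear median, between -0.61 and -2.14 relative to it, and 28 of them were called.

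The leading member shows the scale of this. ATMG00020 had 116727, 118237 and 119759 signal in fld, against 104328, 103134 and 102944 in Col0. The groups did not overlap, and the rise was 0.19 ± 0.04 (log2 ± SE, limma adjusted p = 1.44e-05), while against the nuclear shift the change was -1.47 ± 0.03 (limma adjusted p = 1.25e-19). ATMG01320, the NADH dehydrogenase subunit of complex I, had 62.0, 66.4 and 62.0 signal in fld, against 44.8, 46.5 and 44.9 in Col0. It rose by 0.47 ± 0.13 (limma adjusted p = 0.00157), again less than nuclear genes, with -1.16 ± 0.13 relative to them (limma adjusted p = 1.44e-07). ATMG01090, annotated as subunit 9 of ATP synthase, had 22.8, 16.6 and 34.1 signal in fld, against 15.3, 18.6 and 16.1 in Col0. Those groups overlapped, and the change of 0.47 ± 0.25 was not called (limma adjusted p = 0.0758), but against the nuclear shift the change was -1.11 ± 0.25 (limma adjusted p = 0.000926).

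The largest falls against the nuclear shift among members with a mean of at least 50 were those of ATMG00080 and ATMG00070, at -2.14 ± 0.11 and -2.06 ± 0.10 (limma adjusted p = 1.29e-12 and 2.65e-13). They fell by spike-in as well. ATMG00080 had 130, 139 and 124 signal in fld, against 209, 171 and 174 in Col0, so that no fld library reached the Col0 range.

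Set 1 seedlings labelled ld showed a like pattern against the same Col0 libraries. By spike-in 15 of the 47 members rose and 3 fell, where 90% of all rows rose and 0.461% fell, and the medians were 0.17 for members and 1.203 for nuclear genes. Of the 47 members, 33 fell and 0 rose against the nuclear shift, where 24.7% of all rows fell and 22.9% rose, and all 29 members with a mean of at least 10 were among the 33. ATMG00020 had 114273, 114087 and 119118 signal in ld, above every Col0 library; it rose by 0.16 ± 0.04 and stood at -1.08 ± 0.03 against the nuclear shift (limma adjusted p = 0.000136 and 2.71e-17). ATMG01390 had 8858, 8383 and 9613 signal in ld, against 11000, 11187 and 10170 in Col0. Every ld library was below every Col0 library, and ATMG01390 changed by -0.27 ± 0.05 by spike-in (limma adjusted p = 4.42e-06). In fld, ATMG01390 had 10360, 11289 and 10990 signal, which overlapped Col0.

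Of the 7 members of set 1 with a known product, 4 fell and 0 rose against the nuclear shift in ld, and 5 fell and 0 rose in fld. ATMG01320 had 68.2, 63.8 and 67.1 signal in ld, all above Col0, with 0.54 ± 0.13 by spike-in and -0.69 ± 0.13 against the nuclear shift (limma adjusted p = 0.000489 and 0.00015). ATMG01090 had 13.4, 16.3 and 20.1 signal in ld, overlapping Col0, and changed by -1.204 ± 0.25 against the nuclear shift (limma adjusted p = 0.000493). ATMG00560 had 24.4, 18.8 and 29.1 signal in ld, against 23.6, 19.8 and 17.8 in Col0. It fell by 0.98 ± 0.22 against the nuclear shift (limma adjusted p = 0.000917). Of the low ones, ATMG01080 was the fourth called in ld, at -1.08 ± 0.40 (limma adjusted p = 0.0307). ATMG00980, a ribosomal protein, was not called in ld, at -0.67 ± 0.42 against the nuclear shift (limma adjusted p = 0.204), and neither was ATMG00280, annotated like the large chain of ribulose bisphosphate carboxylase, at 0.63 ± 0.68 (limma adjusted p = 0.476). The falls against the nuclear shift of ATMG00080 and ATMG00070 were 1.66 ± 0.11 and 1.52 ± 0.10 (limma adjusted p = 1.14e-10 and 5.51e-11), the largest called among members with a mean of at least 50.

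Between the mutants of set 1, ld was compared with fld. By spike-in 6 members rose and 13 fell in ld relative to fld, where 2.65% of all rows rose and 64.4% fell. The median change was -0.28 for members and -0.40 for nuclear genes. Against the nuclear shift 16 members rose and 1 fell, where 20% of all rows rose and 20.7% fell. ATMG00020 differed by -0.03 ± 0.04 by spike-in (limma adjusted p = 0.47). As whole sums, mitochondrion-encoded signal was 1.13 times that of Col0 in fld and 1.10 times in ld, while nuclear signal was 2.93 and 2.18 times that of Col0.

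Chloroplast-encoded genes, the other organelle set, are given for comparison, with no test between the organelles. In fld of set 1 the 101 chloroplast-encoded rows had a median of 1.59 by spike-in and -0.01 against the nuclear shift, where 33 rose and 28 fell. In ld of set 1 their medians were 1.26 and 0.12. Their share of all signal was 3.39 ± 0.161% in fld and 3.90 ± 0.131% in ld, against 3.12 ± 0.187% in Col0 (SD, n = 3 each), so the low mitochondrion-encoded share in set 1 did not come with a low chloroplast-encoded share.

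In set 2, members of ld seedlings rose about as much as nuclear genes. By spike-in 37 of the 62 members rose and 0 fell, where 71.3% of all rows rose and 1.85% fell, and the medians were 0.63 for members and 0.54 for nuclear genes. Only 3 rose and 0 fell against the nuclear shift, where 16.4% of all rows rose and 14.4% fell, and 12 members had an unadjusted p under 0.05. ATMG00020 had 256928, 220702 and 218965 signal in ld, against 203926, 137093 and 152062 in Col0. The ld libraries all lay above Col0, and the change was 0.52 ± 0.12 by spike-in and -0.04 ± 0.13 against the nuclear shift (limma adjusted p = 0.000845 and 0.832). ATMG01320 had 178, 161 and 169 signal in ld, against 118, 101 and 88.6 in Col0, and rose by 0.73 ± 0.12 (limma adjusted p = 1.02e-05), with 0.17 ± 0.12 against the nuclear shift (limma adjusted p = 0.282). The 3 called rises against the nuclear shift include ATMG01120 at 0.45 ± 0.15 and ATMG00670 at 0.30 ± 0.08 (limma adjusted p = 0.0245 and 0.00633). The count of 3 became 6 without replicate 1 of Col0, all higher, and 6 without replicate 2 of ld, of which 2 were lower.

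In pol2a seedlings the members rose while the typical nuclear gene did not. By spike-in 37 of the 62 members rose and 0 fell, where 30.7% of all rows rose and 22.9% fell; the medians were 0.61 for members and 0.05 for nuclear genes. There were 35 rises and 0 falls against the nuclear shift, where 27.4% of all rows rose and 27.3% fell. The highest member was an exception. ATMG00020 had 140110, 137212 and 204639 signal in pol2a, overlapping Col0, with a change of -0.04 ± 0.12 (limma adjusted p = 0.825). ATMG01390 had 19390, 16323 and 35960 signal in pol2a, against 22820, 19847 and 19254 in Col0, so that replicate 3 of pol2a alone lay above Col0 and the change of 0.13 ± 0.17 was not called (limma adjusted p = 0.561). The whole mitochondrion-encoded sum was 1.03 times that of Col0, whereas the sum without ATMG00020 and ATMG01390 was 1.52 times.

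Markers of other tissues moved with these genotypes too. The summed level of 4 shoot apex markers (STM, CLV3, WUS and KNAT1), scaled to nuclear genes, ranged between 277 and 306 in ld pol2a, between 191 and 224 in ld and between 267 and 304 in pol2a, against 177 to 193 in Col0 of set 2; WUS was at 0 in all but 1 library. The sum of 3 root markers ranged between 61.2 and 77.9 in pol2a, against 100.01 to 120 in Col0. It ranged between 84.6 and 98.3 in ld and between 79.2 and 104.9 in ld pol2a. In pol2a PLT1 and EXPA7 fell against the nuclear shift, by 1.79 ± 0.27 and 0.54 ± 0.15 (limma adjusted p = 1.19e-05 and 0.00516). COBL9 was not called there (-0.006 ± 0.27, limma adjusted p = 0.987). Both leaf markers rose in pol2a, LHCB1.3 by 0.32 ± 0.05 and RBCS1A by 0.72 ± 0.04 against the nuclear shift (limma adjusted p = 3.79e-06 and 3.13e-12). The rise was not particular to pol2a. The sum of the 2 leaf markers ranged between 475570 and 482860 in ld and between 477930 and 501650 in ld pol2a. In pol2a this sum ranged between 449830 and 463750, against 309730 to 327150 in Col0. In set 1 the root sum ranged between 195 and 224 in fld and between 144 and 158 in ld, against 148 to 164 in Col0. The leaf sum there ranged between 266620 and 276670 in fld and between 261040 and 268710 in ld, against 302020 to 322180 in Col0. The shoot apex sum of set 1 ranged between 173.2 and 196.5 in fld and between 163.7 and 188.9 in ld, against 157.5 to 167.9 in Col0. In set 3 the root sum ranged between 694 and 792 in ld, against 550 to 591 in Col0. The shoot apex and leaf sums of ld overlapped Col0 in that set. The part of these shifts in the member changes was not tested.

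Of the 14 members with a known product tested in set 2, 4 rose by spike-in in pol2a and 0 fell. Over all rows, 30.7% rose and 22.9% fell. ATMG01320 had 158, 143 and 189 signal in pol2a, all above the Col0 libraries, and rose by 0.67 ± 0.12 (limma adjusted p = 5.79e-05). ATMG01090 had 91.6, 72.1 and 82.2 signal in pol2a, against 53.6, 51.9 and 54.2 in Col0, and rose by 0.61 ± 0.15 (limma adjusted p = 0.00181). ATMG00560 had 69.9, 53.5 and 89.2 signal in pol2a, against 42.2, 27.4 and 43.9 in Col0. It rose by 0.89 ± 0.21 (limma adjusted p = 0.00132). ATMG00180, the cytochrome c maturation factor, averaged 11.8 ± 3.84 signal in pol2a and 7.60 ± 2.98 in Col0 (SD, n = 3 each), which overlapped (0.60 ± 0.33, limma adjusted p = 0.136). The largest rises against the nuclear shift among members with a mean of at least 50 were those of ATMG01120 and ATMG00110, at 1.29 ± 0.15 and 1.21 ± 0.19 (limma adjusted p = 2.06e-07 and 1.64e-05). ATMG01120 had 181, 208 and 285 signal in pol2a, against 94.2, 93.0 and 74.0 in Col0.

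**Figure D3:**
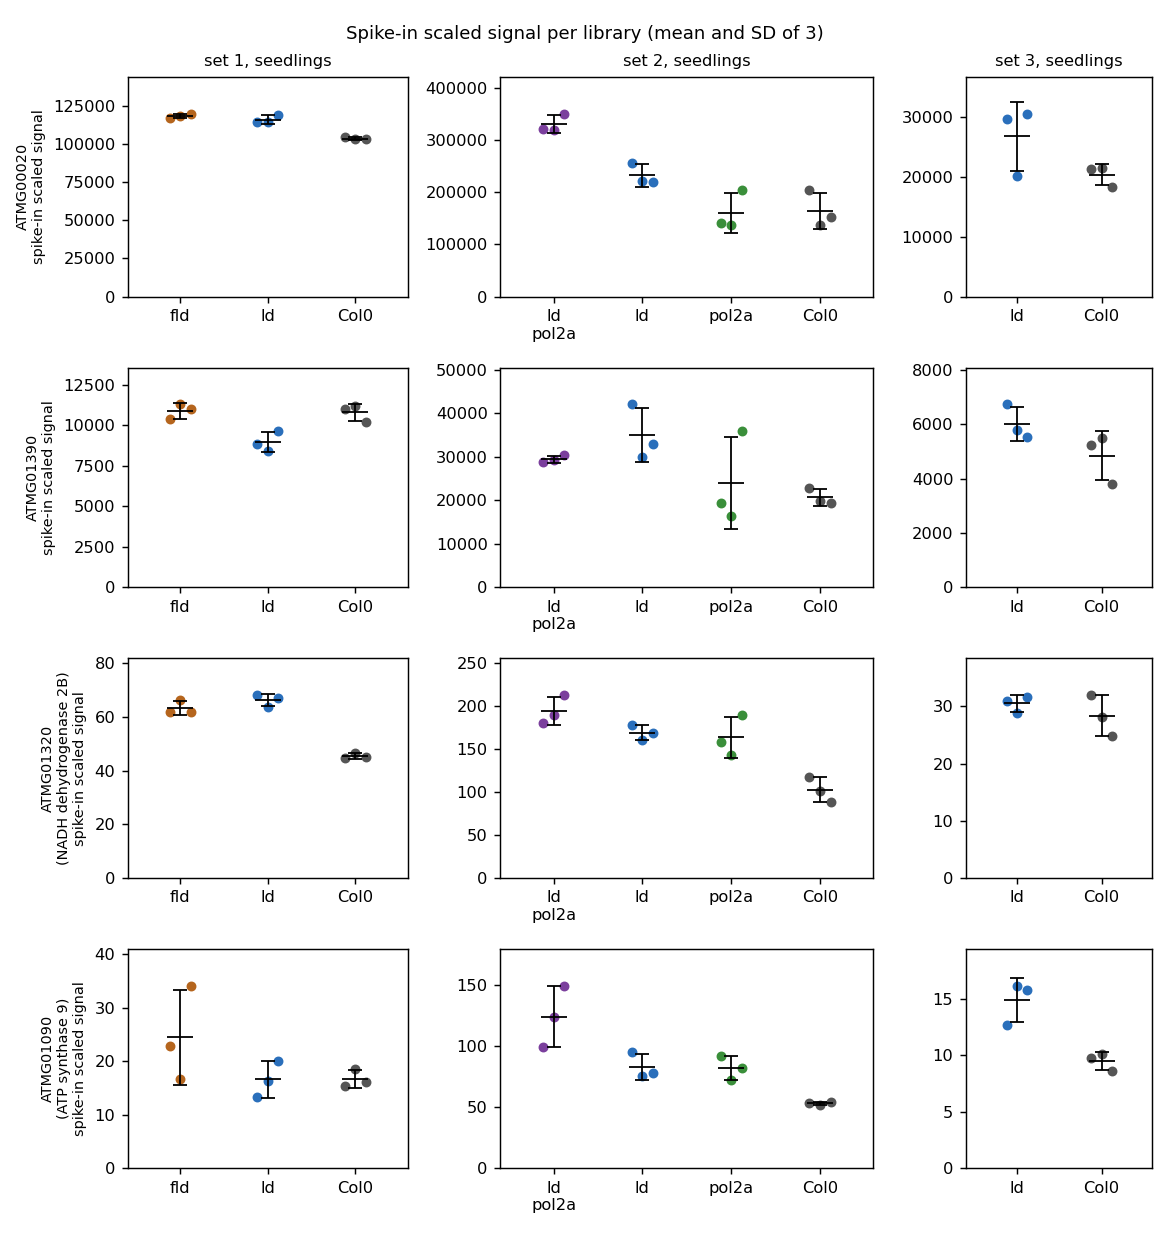
Spike-in scaled signal of ATMG00020, ATMG01390, ATMG01320 (NADH dehydrogenase 2B) and ATMG01090 (annotated as ATP synthase 9) in every seedling library (points). Bars give the mean and SD of the 3 libraries per genotype, and every vertical axis starts at 0. In set 2 the pol2a libraries lie above Col0 for ATMG01320 and ATMG01090 but overlap Col0 for ATMG00020 and ATMG01390.

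The ld pol2a seedlings had the highest mitochondrion-encoded signal of set 2 and still rose less than their nuclear genes. By spike-in 49 of the 62 members rose and 0 fell, where 92.9% of all rows rose and 0.429% fell, and the medians were 1.09 for members and 1.47 for nuclear genes. Against the nuclear shift 22 fell and 1, ATMG00110, rose, where 25.5% of all rows fell and 26.9% rose. ATMG00020 had 321054, 319847 and 350659 signal in ld pol2a, above every Col0 library, a rise of 1.03 ± 0.12 by spike-in and a fall of 0.46 ± 0.13 against the nuclear shift (limma adjusted p = 8.72e-08 and 0.00522). ATMG01390 had 28779, 29186 and 30302 signal in ld pol2a and showed the largest fall among members with a mean of at least 50, at -0.97 ± 0.18 against the nuclear shift (limma adjusted p = 9.94e-05). ATMG01320 had 181, 190 and 213 signal in ld pol2a, with 0.93 ± 0.12 by spike-in and -0.55 ± 0.12 against the nuclear shift (limma adjusted p = 1.82e-07 and 0.000449). ATMG01090 had 99.3, 123.3 and 149 signal in ld pol2a, above every Col0 library; it rose by 1.19 ± 0.15 (limma adjusted p = 1.73e-07) and was not called against the nuclear shift (-0.28 ± 0.14, limma adjusted p = 0.108). Without replicate 1 of Col0, 12 members fell and 2 rose. ATMG00030 averaged 242 ± 65.1 signal in ld pol2a and 139 ± 32.9 in Col0 (SD, n = 3 each), with overlapping groups, and its change against the nuclear shift was -0.69 ± 0.17 (limma adjusted p = 0.00203).

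The remaining members with a named product were low. Of the 14 with a known product tested in set 2, 6 rose by spike-in in ld pol2a, 5 in ld and 4 in pol2a, and 0 fell. Over all rows, 92.9%, 71.3% and 30.7% rose in the same genotypes. ATMG00280 averaged 7.04 ± 1.82 signal in ld pol2a, 4.44 ± 2.92 in ld and 2.79 ± 1.27 in pol2a, against 0.978 ± 0.847 in Col0 (SD, n = 3 each). Only ld pol2a did not overlap Col0, and the rise by spike-in was called in ld pol2a, at 2.11 ± 0.53, and in ld, at 1.41 ± 0.53 (limma adjusted p = 0.000775 and 0.0208). This member is annotated like the large chain of ribulose bisphosphate carboxylase, and which genome its reads came from was not tested. ATMG01080, the other member annotated as subunit 9 of ATP synthase, averaged 26.3 ± 11.3 signal in ld pol2a, 16.4 ± 9.72 in ld and 15.6 ± 0.547 in pol2a, against 11.9 ± 1.69 in Col0 (SD, n = 3 each). It was called by spike-in in ld pol2a. ATMG00980, a protein of the small ribosomal subunit, averaged 9.22 ± 5.82 signal in ld pol2a, 10.03 ± 2.17 in ld and 6.12 ± 1.08 in pol2a, against 9.65 ± 5.49 in Col0, and all groups overlapped Col0. ATMG00590, annotated as a cytochrome b/b6 protein, a name of complex III, averaged 8.82 ± 6.001 signal in ld pol2a and 3.28 ± 1.83 in Col0, with overlapping groups. ATMG01280, like subunit II of cytochrome c oxidase, averaged 4.5999 ± 3.25 signal in ld pol2a and 2.25 ± 1.68 in Col0, again overlapping. ATMG00960, a cytochrome c assembly protein, averaged 5.11 ± 1.84 signal in pol2a and 1.301 ± 1.23 in Col0, which did not overlap, with 1.53 ± 0.63 by spike-in (limma adjusted p = 0.0453).

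Against ld of the same set, 32 members of ld pol2a rose and 0 fell by spike-in, where 88.9% of all rows rose and 1.2% fell, with medians of 0.53 for members and 0.94 for nuclear genes. There were 21 falls and 0 rises against the nuclear shift, where 26.7% of all rows fell and 28.3% rose. ATMG01390 averaged 29422 ± 789 signal in ld pol2a and 35015 ± 6276 in ld (SD, n = 3 each), which overlapped, with -0.24 ± 0.17 by spike-in (limma adjusted p = 0.197). ATMG01320 was not called by spike-in either (0.20 ± 0.12, limma adjusted p = 0.114).

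The difference of the differences was tested in set 2 with an interaction term, a test added after the data were seen. By spike-in the effect of ld pol2a departed from the sum of the effects of ld and pol2a in 10 of the 62 members, 7 below and 3 above the sum, where 1.46% of all rows lay below and 80.1% above. The median departure was -0.15 for members and 0.88 for nuclear genes. Against the nuclear shift 35 members departed, all below the sum, where 23.3% of all rows lay below it. That reading takes out the departure of the typical nuclear gene, which by spike-in was the larger one. For ATMG01320 the departure was -0.47 ± 0.17 by spike-in (limma adjusted p = 0.0136).

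The ld seedlings of set 3 were compared with Col0 of their own set. By spike-in 21 of the 45 members rose and 1 fell, where 88.1% of all rows rose and 0.604% fell, with medians of 0.41 for members and 0.69 for nuclear genes. Against the nuclear shift 11 fell and 1 rose, where 17.8% of all rows fell and 17.6% rose; with replicates 1 and 2 of Col0 taken as 1 sample, 10 fell and 0 rose. The largest falls among members with a mean of at least 50 were those of ATMG00510 and ATMG00513, at -0.54 ± 0.11 and -0.52 ± 0.12 (limma adjusted p = 0.00179 and 0.00476), and the rise was that of ATMG00110, at 0.59 ± 0.21 (limma adjusted p = 0.0469). ATMG00020 had 29604, 20120 and 30510 signal in ld, against 21247, 21379 and 18346 in Col0. Replicate 2 of ld lay within the Col0 range, the change was 0.37 ± 0.11 by spike-in (limma adjusted p = 0.00598), and -0.32 ± 0.12 against the nuclear shift was not called (limma adjusted p = 0.0629). ATMG00030, so much higher in this set, had 3603, 2705 and 3676 signal in ld, against 2458, 2494 and 2082 in Col0. It rose by 0.50 ± 0.09 (limma adjusted p = 0.000132) and was not called against the nuclear shift (-0.20 ± 0.10, limma adjusted p = 0.152). ATMG01320 had 31.0, 28.9 and 31.6 signal in ld, against 32.002, 28.2 and 24.9 in Col0, with overlapping groups, and fell by 0.56 ± 0.16 against the nuclear shift (limma adjusted p = 0.0178). The chloroplast-encoded rows of set 3 had a median of 0.09 by spike-in, and 58 of 107 fell against the nuclear shift.

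The ld effect could thus be set side by side in 3 sets, each with its own Col0. Among the 39 members tested in every set, 31 fell against the nuclear shift in set 1 and 10 in set 3, and all 10 of those in set 3 were among the 31. Over the 21423 rows tested in every set, 24.9% fell in set 1 and 18.6% in set 3; of those that fell in set 3, 31.8% also fell in set 1. With 31 of 39 members called in set 1, most of any 10 would be among them, so nothing is read from the overlap. None of the 39 fell in all 3 sets by limma, since 0 fell in set 2. By spike-in 9 of the 39 rose in all 3 sets. Of all rows tested in each set, 90% rose in set 1, 71.3% in set 2 and 88.1% in set 3. The share of all rows that rose in every set was not counted, so nothing is read from the count of 9. A test of the difference between sets was not run, because the sets were scaled separately.

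**Figure D4:**
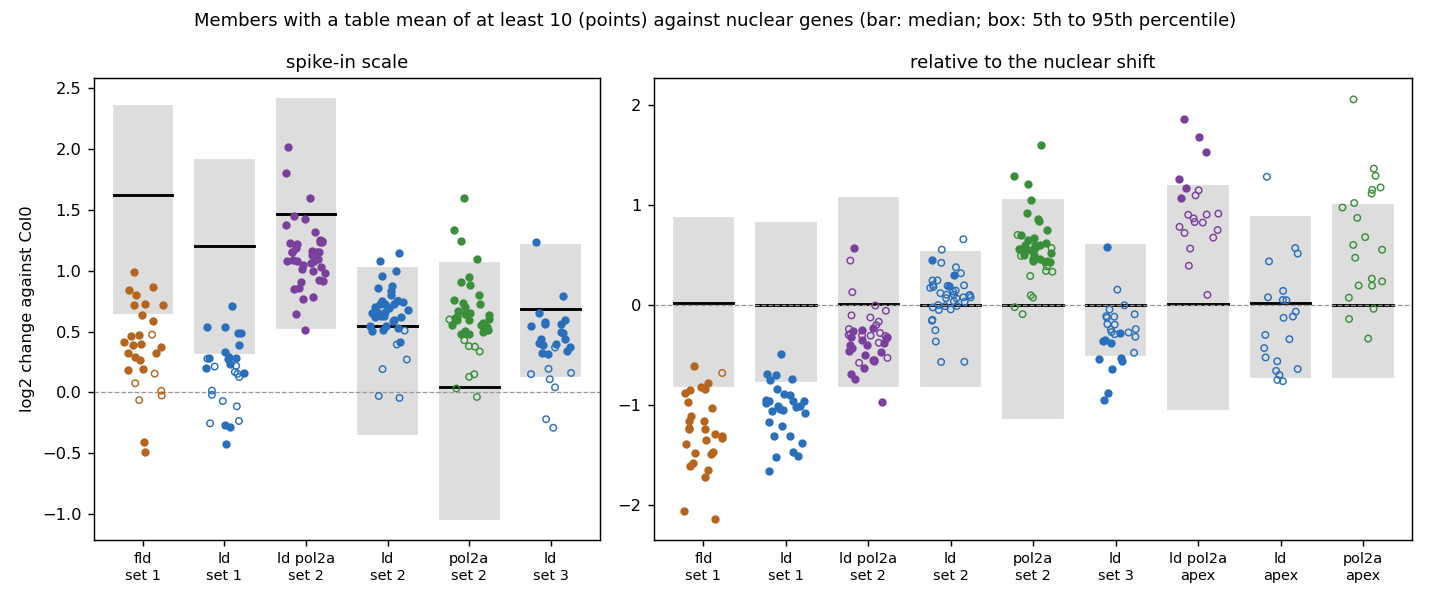
Log2 change against Col0 of each member with a table mean of at least 10 (points; filled where the adjusted p was under 0.05), by spike-in at left and against the nuclear shift at right, with the median of nuclear genes (bar) and their 5th to 95th percentile (box). The fld and ld members of set 1 lie below the nuclear median, with member medians of 0.39 and 0.21, those of ld in set 2 lie around it and those of pol2a in set 2 above it.

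In shoot apices, where only changes relative to nuclear genes could be read, the members of ld pol2a stood higher and those of ld did not. Of 41 members, 8 rose and 0 fell in ld pol2a, where 13% of all rows rose and 9.52% fell, and the member median was 0.83, against 0.01 for nuclear genes. All 21 members with a mean count of at least 10 lay above 0. ATMG00020 had 849.9, 1391 and 1202 CPM in ld pol2a, against 734, 547 and 766 in Col0. The groups did not overlap, but the change of 0.75 ± 0.33 was not called (edgeR adjusted p = 0.12). The largest called rises were those of ATMG00690 and ATMG00670, at 1.86 ± 0.61 and 1.68 ± 0.41 (edgeR adjusted p = 0.0436 and 0.0119), on 17 to 21 and 20 to 30 counts per library in ld pol2a, against 2 to 5 and 4 to 8 in Col0. These calls rested on single libraries: 3, 0 and 4 members were called without replicate 1, 2 and 3 of Col0, and 1 without replicate 2 or replicate 3 of ld pol2a. The chloroplast-encoded share moved with the genotype as well, at 0.731 ± 0.151% in ld pol2a, 0.421 ± 0.290% in ld and 0.819 ± 0.252% in pol2a, against 0.372 ± 0.0607% in Col0 (SD, n = 3 each), and its part in the member changes was not tested. The summed level of the 4 shoot apex markers moved too: it ranged between 20.3 and 21.9 CPM in ld pol2a, between 11.9 and 13.8 in ld and between 20.7 and 23.5 in pol2a, against 9.55 to 11.45 in Col0, with no mutant library within the Col0 range. STM, a meristem homeobox gene, averaged 11.6 ± 1.10 CPM in ld pol2a, 6.17 ± 1.02 in ld and 12.4 ± 2.25 in pol2a, against 4.94 ± 0.907 in Col0 (SD, n = 3 each), and rose in ld pol2a and pol2a (1.23 ± 0.19 and 1.32 ± 0.19, edgeR adjusted p = 0.00078 and 0.00144). KNAT1 rose in ld pol2a (0.75 ± 0.23, edgeR adjusted p = 0.0317) and was not called in pol2a (0.85 ± 0.23, edgeR adjusted p = 0.0506). CLV3 and WUS were at or near 0. The part of these markers in the member changes was not tested either.

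Apices of pol2a had a member median of 0.60, but 0 of 41 were called with edgeR, where 3.12% of all rows rose and 2.03% fell; 9 members had an unadjusted p under 0.05, and DESeq2 called 3, all higher. ATMG01320 had 18, 22 and 22 counts in pol2a, against 7, 7 and 14 in Col0, which did not overlap (1.15 ± 0.42, edgeR adjusted p = 0.146). As in seedlings, ATMG00020 was level with Col0 here, at 0.07 ± 0.32 (edgeR adjusted p = 0.937), while the share of all counts without ATMG00020 and ATMG01390 was 1.53 times that of Col0.

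Apices of ld had a member median of -0.11, with 0 of 41 called by edgeR, 0 at an unadjusted p under 0.05 and 0 called by DESeq2, where 0.250% of all rows rose and 0.344% fell. Replicate 3 of ld stood apart. ATMG00020 had 270, 376 and 741 CPM in ld, so that replicates 1 and 2 lay below every Col0 library and replicate 3 among them. Without replicate 3, 3 members were called, all lower. Comparing ld pol2a with ld, 13 of 41 rose and 0 fell, where 16.2% of all rows rose and 13.7% fell, with a member median of 1.03. ATMG00020 and ATMG01390 rose by 1.31 ± 0.33 and 1.42 ± 0.34 (edgeR adjusted p = 0.0112 and 0.00898). The count of 13 became 22 without replicate 3 of ld, 3 and 2 without replicates 1 and 2 of ld, and 3 and 4 without replicates 2 and 3 of ld pol2a.

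Nuclear genes listed for a role in the mitochondrion were read on the same scales, for lists of which 47 of 66 genes matched their symbol in the reference. They are described by counts, without a test between these lists and the mitochondrion-encoded members. The counts stand against the shares of all rows called against the nuclear shift, which were 26.6% higher and 26.4% lower in fld of set 1, 22.9% and 24.7% in ld of set 1, 16.4% and 14.4% in ld of set 2, 27.4% and 27.3% in pol2a, 26.9% and 25.5% in ld pol2a, and 17.6% and 17.8% in ld of set 3. In fld of set 1, all 13 subunits of the respiratory chain and ATP synthase rose by spike-in, with a median of 1.66, where 93.5% of all rows rose and the nuclear median was 1.63, and against the nuclear shift 4 rose and 4 fell. SDH1-1, the flavoprotein subunit of complex II, averaged 3244 ± 14.3 signal in fld and 828 ± 23.5 in Col0 (SD, n = 3 each), a rise of 0.31 ± 0.03 against the nuclear shift (limma adjusted p = 5.05e-08). In ld of set 1 the 13 subunits again all rose by spike-in, where 90% of all rows did, while 10 fell and 0 rose against the nuclear shift, with a median of -0.26, against -0.96 for the mitochondrion-encoded members.

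In ld pol2a of set 2, 10 of the 13 nuclear-encoded subunits rose against the nuclear shift and 0 fell, where 22 of the 62 mitochondrion-encoded members fell. CYTC-1, a cytochrome c, averaged 7086 ± 355 signal in ld pol2a and 1999.7 ± 60.3 in Col0 (SD, n = 3 each), a rise of 0.34 ± 0.04 against the nuclear shift (limma adjusted p = 1.44e-07). In pol2a of set 2, 8 of the 13 rose and 1 fell, with a median of 0.17. In ld of set 2, 2 rose and 3 fell, and in ld of set 3, 5 rose and 1 fell. In the apices 4 of the 13 rose and 0 fell in ld pol2a, where 13% of all rows rose, with a median of 0.28, and 0 were called in ld or pol2a.

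The list of organellar transcription, RNA processing and editing factors held 10 matched genes. They include PTAC2, which is known from plastids. The organelle of each product was not checked, so the counts are not of mitochondrial factors alone. In the reading against the nuclear shift, 6 rose and 0 fell in fld of set 1, 2 and 0 in ld of set 1, 5 and 0 in ld of set 2, 6 and 0 in pol2a, 4 and 1 in ld pol2a, and 6 and 0 in ld of set 3. MORF1, an RNA editing factor of mitochondria, averaged 610.1 ± 27.0 signal in fld and 146 ± 6.78 in Col0 of set 1 (SD, n = 3 each), a rise of 0.40 ± 0.06 against the nuclear shift (limma adjusted p = 4.21e-06). In apices of ld pol2a 4 rose and 2 fell, where 13% of all rows rose and 9.52% fell, and MORF1 averaged 55.7 ± 4.24 CPM in ld pol2a and 29.7 ± 0.804 in Col0 (0.91 ± 0.09, edgeR adjusted p = 6.16e-05).

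Genes of the mitochondrial stress response, such as the alternative oxidase AOX1A, did not move one way. Of the 10 tested in seedlings, against the nuclear shift 1 rose and 5 fell in fld of set 1, 0 and 5 in ld of set 1, 0 and 3 in ld of set 2, 5 and 2 in pol2a, 7 and 2 in ld pol2a, and 2 and 2 in ld of set 3. AOX1A averaged 552 ± 27.0 signal in fld and 246 ± 14.9 in Col0 of set 1, a fall of 0.49 ± 0.06 against the nuclear shift (limma adjusted p = 2.48e-07), and 1289 ± 124 in ld pol2a and 337 ± 12.3 in Col0 of set 2, a rise of 0.44 ± 0.08 (limma adjusted p = 0.000105). The largest rise in pol2a against the nuclear shift among these 10 was that of UCP5, a dicarboxylate carrier of the inner membrane, which averaged 1077 ± 12.6 signal in pol2a and 159 ± 4.69 in Col0 (SD, n = 3 each; 2.70 ± 0.05, limma adjusted p = 1.47e-19). Among 11 carriers, import receptors and porins, 6 rose and 5 fell in pol2a and 9 rose and 2 fell in ld pol2a. AAC1, the main ADP/ATP carrier, averaged 36676 ± 116 signal in ld pol2a and 10455 ± 160 in Col0 (0.33 ± 0.03, limma adjusted p = 4.71e-08). Both matched nuclear genes for proteins of the mitochondrial ribosome, NFD1 and NFD3, rose against the nuclear shift in fld and ld of set 1, in ld pol2a of set 2 and in ld pol2a apices.

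The spread between replicates limits the smaller of these changes. Among members with a mean of at least 50, the median coefficient of variation within groups was 5.91% in set 1, 12.2% in set 2, 10.5% in set 3 and 28.3% in the apices, against 5.89%, 5.88%, 3.90% and 17.1% for nuclear genes. The members were thus as even as nuclear genes in set 1 and less even elsewhere.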

How the data were processed

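RNA from 39 Arabidopsis libraries was sequenced as poly(A) RNA. Per the submitters' processing notes, reads were handled with Trimmomatic 0.38, HISAT2, SAMtools 1.9, featureCounts, deepTools and DESeq2 on TAIR10; their settings are not stated there. Seedling values were deposited as signal, which are gene counts that the authors divided by spike-in factors, per the labels; apex values were deposited by the authors as raw counts. Signal returned to whole reads within 0.1 read for 100% of values in every seedling library. Rows with a mean of at least 1 were tested with limma 3.58.1 (trend, signal plus 1) in seedlings and in apices with edgeR 4.0.16 (quasi-likelihood, TMM over nuclear genes), all groups of a table in 1 fit, each table apart. P-values were adjusted over all rows tested, with a threshold of 0.05. Fits were tested on simulated data. Replicate numbers were taken to pair 2 groups where every same-numbered pair deviated together (r above 0.1); this held for ld and pol2a apices against Col0 (r of 0.271 to 0.619 and 0.275 to 0.511), from the data and not the labels.

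On recovered reads, edgeR called 11348 rows and 33 members for fld of set 1 against the nuclear shift, where limma called 11494 and 33; for ld pol2a of set 2 it called 12152 rows and 20 members, where limma called 11491 and 23. DESeq2 1.42.0 was an alternative for the apices. Copies in the nucleus were found with BLAST 2.17.0 (alignments of at least 200 bp), and sequences come from RefSeq TAIR10.1. Named members are those with a product and the highest means, and per comparison the called members with the largest changes at a mean of at least 50 (10 in apices), of which up to 2 with no annotation are printed per direction. The members, lists and tests were chosen with earlier results of these data known.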

Additional observations from a re-analysis of the deposited data

Results flagged for a closer look

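In set 2 an interaction term, chosen after the data were seen, asked whether the ld effect on mitochondrion-encoded members differed with pol2a. By spike-in 10 of 62 members were called by limma, 7 below and 3 above the sum of the single effects, where 1.46% of all rows lay below and 80.1% above. The median departure was -0.15 for members and 0.88 for nuclear genes, so by spike-in the larger departure was that of the nuclear genes. Against the nuclear shift 35 of 62 were called, all below the sum, where 23.3% of all rows lay below and 23.1% above. Their medians were -0.96 for members and 0.02 for nuclear genes, since this reading takes out the departure of the typical nuclear gene. In the apices 0 of 41 were called by edgeR, where 6.08% of all rows were, with 6 at an unadjusted p under 0.05.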

How the results depend on the processing

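Of 262 alternative values, 240 kept their direction and stayed within 1.5 times the reported count or 1 SD of the reported share, 22 moved and 0 reversed. For ld of set 2 against the nuclear shift, leaving out 1 library gave 2 to 6 called members, against 3 with all; for ld pol2a of set 2 it gave 14 to 23, against 23. In the apices leaving out 1 library gave 0 to 3 for ld, 0 to 1 for pol2a, 0 to 7 for ld pol2a and 2 to 22 for ld pol2a against ld, where all libraries gave 0, 0, 8 and 13. DESeq2 called 3 members in pol2a apices. With the groups compared alone, 14 members were called in ld pol2a apices and 7 against ld. Without ATMG00020 the mean share over all libraries became 0.171%, 0.27%, 0.0345% and 0.0718% in set 1, set 2, set 3 and the apices, against 1.25%, 1.44%, 0.105% and 0.145% with it. The cause of these shifts was not tested. In seedlings the replicate numbers do not pair the samples by the rule used, and in the apices they do so for ld and pol2a against Col0 alone. Same-numbered libraries correlated above 0.1 in 3 of 9, 0 of 18, 1 of 3 and 12 of 18 pairs in the 4 tables, and correlated best with their own number in 5, 1, 1 and 12 of them. With the replicate block, 33 members were called for fld, 33 for ld of set 1, 3 for ld, 33 for pol2a and 20 for ld pol2a of set 2, and 13 for ld of set 3 against the nuclear shift, and 0, 0 and 9 for ld, pol2a and ld pol2a apices, so that the block changed no count of the paired comparisons. In the apices 21 of 41 members had a mean count of at least 10, on 7901 to 38355 mitochondrion-encoded counts per library.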
